A study of Mus musculus with 19 samples.

Results

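Genes of the lipid droplet coat and of lipolysis, the enzymatic release of fatty acids from stored fat, were followed in sciatic nerve from mice of the inbred strain DBA/2J. The list held 10 genes, namely Plin1, Plin2, Plin3, Plin4, Plin5, Cidec, Lipe, Pnpla2, Mgll and G0s2. No probe set carried the symbol Plin1 alone, so Plin1 is not analysed here, and the other 9 of the 10 were taken from the 18193 genes that had a probe set with a single symbol. A gene with several probe sets was read from the brightest on average over the 19 arrays, and its value is a log2 intensity. All 9 passed the filter on low values, a mean log2 intensity above 5.54, which left 13460 genes for testing. Plin5 was the member nearest to that filter, with a mean of 5.37 in 1 group.

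The study used Affymetrix arrays on total RNA of whole nerve and crossed diabetes with the drug rosiglitazone. Control vehicle mice were non-diabetic with no treatment listed, and diabetic vehicle mice had received streptozotocin (STZ), a toxin of the insulin-producing cells that gives a model of type 1 diabetes. Control rosiglitazone mice received rosiglitazone alone, and diabetic rosiglitazone mice received both STZ and rosiglitazone. The series design gives 5 mice per group with 1 array each, and 1 control vehicle array was excluded by the submitters after quality control, so 4, 5, 5 and 5 arrays entered. Arrays are named by group, CV for control vehicle, DV for diabetic vehicle, CR for control rosiglitazone and DR for diabetic rosiglitazone, and by the number in their title. All mice shared the DBA/2J background, and dose, duration, age and sex are not given in the sources used here.

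Neutral fat is stored in droplets whose surface is covered by perilipins, the products of the Plin genes, and Cidec lets droplets fuse into larger ones. Lipolysis runs in sequence from Pnpla2, the triglyceride lipase, through Lipe, the hormone-sensitive lipase, to Mgll, the monoglyceride lipase, and G0s2 binds and inhibits the Pnpla2 product. Fat cells lie in the outer sheath of peripheral nerve, and rosiglitazone activates the nuclear receptor PPAR gamma, which drives many droplet genes in fat cells.

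Promoter sequences from RefSeq (GRCm38.p6, 250 bases before to 50 after a listed start of a gene, written on the gene's own strand) are shown for Cidec, the member whose level followed the fat cell hormone gene Adipoq most closely below, for Plin5, which had the largest mean difference with rosiglitazone in control mice, from a group mean below the filter, and for Plin2, another perilipin gene with a match to the same motif. A gene can have several listed starts. The RefSeq gene entries of Cidec, Plin5 and Plin2 each extend upstream of the start used here, and that of Cidec extends beyond the window shown. Capitals mark the motif match. In Cidec (chr6:113434715-113435014, minus strand) they mark TTGCTCAA, a match to the C/EBP pattern TTGCNCAA, 198 bases upstream of the start. In Plin5 (chr17:56117499-56117798, minus strand) they mark AGGTCA, the core recognised by nuclear receptors, 170 bases upstream, and in Plin2 (chr4:86670010-86670309, minus strand) the same core on the opposite strand, 218 bases upstream.
Cidec: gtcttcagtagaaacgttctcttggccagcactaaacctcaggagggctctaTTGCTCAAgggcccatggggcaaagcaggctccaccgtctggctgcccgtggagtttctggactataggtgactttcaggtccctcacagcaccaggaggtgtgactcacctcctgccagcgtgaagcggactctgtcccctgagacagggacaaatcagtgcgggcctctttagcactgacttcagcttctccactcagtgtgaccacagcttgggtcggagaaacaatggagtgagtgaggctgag
Plin5: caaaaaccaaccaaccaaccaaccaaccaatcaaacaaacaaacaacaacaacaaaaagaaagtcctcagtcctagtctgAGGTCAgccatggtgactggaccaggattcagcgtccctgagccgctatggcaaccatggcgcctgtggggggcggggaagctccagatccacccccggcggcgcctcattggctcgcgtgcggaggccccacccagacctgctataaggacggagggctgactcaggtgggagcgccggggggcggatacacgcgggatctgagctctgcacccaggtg
Plin2: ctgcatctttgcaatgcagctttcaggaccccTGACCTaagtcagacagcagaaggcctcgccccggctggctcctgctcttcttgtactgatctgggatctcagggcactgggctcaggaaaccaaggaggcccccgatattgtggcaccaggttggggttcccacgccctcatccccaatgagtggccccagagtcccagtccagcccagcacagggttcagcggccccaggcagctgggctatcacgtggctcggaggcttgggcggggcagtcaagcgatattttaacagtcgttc

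Entries for all 10 listed genes were found, with 14 promoters. Both strands were searched for 4 patterns, and the core AGGTCA also lies within the longest of them. The full element of PPAR gamma and its partner, 2 copies of AGGTCA on a strand with 1 base of any kind between them, had no match in the 14 promoters and was present in 0.0396% of all 32851 promoters of the same length. The core AGGTCA was found in 3 promoters of Plin2 and Plin5, against 16.3% of all promoters. TTGCNCAA was found in Plin1 and Cidec and in 2.94% of all promoters, and the E-box CACGTG in Plin2, Lipe and Mgll and in 7.15% of all. Looser forms of the patterns were also searched when the set was chosen. A match describes letters in this window only. On chromosome 17, Plin4 and Plin5 are direct neighbours in the RefSeq gene table, and Plin3 lies 9 genes from Plin5.

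The nerve samples differed in fat content as read from transcripts, and 3 arrays stood apart in it. Adipoq, which encodes the fat cell hormone adiponectin, was at 5.48 in diabetic vehicle array DV709 and 8.04 in control vehicle array CV702, while the other 17 arrays lay between 11.16 and 13.80. The highest Adipoq value belonged to control rosiglitazone array CR715, which alone had Ucp1, the uncoupling protein of brown fat, at 11.04, against 6.27 in the next array. Fat cell markers were measured for 6 of 8 listed genes, and their level, averaged after each gene was centred across the arrays, was 2.27 in array CR715, -4.39 in array DV709 and -2.67 in array CV702. It ranged from -2.67 to 1.22 in control vehicle arrays, -4.39 to 0.65 in diabetic vehicle arrays, -0.18 to 2.27 in control rosiglitazone arrays and -0.66 to 1.27 in diabetic rosiglitazone arrays. Brown fat markers were measured for all 6 listed genes, and their level was 2.50 in array CR715 and -1.13 to 0.70 in the others. Ucp1, Cidea, Cox8b and Dio2 were highest in array CR715, but Elovl3 in array DV707 and Ppargc1a in array DV709. The means of Ucp1 and Elovl3, 5.34 and 3.07, lay below the filter. In bulk tissue, fewer cells of a type and less RNA per cell cannot be told apart. For myelinating Schwann cells, which define the tissue, 4 of 7 listed markers were measured, and their level lay between -0.88 (array CR715) and 0.32. Sensory neuron markers, chosen for the cell bodies of these neurons, were at a level of -3.88 to -3.33 in 5 arrays. These were DV706, DV707 and DV709 of the diabetic vehicle group with CR715 and DR716, and the level was -0.10 to 2.24 in the other 14. Among the markers, Scn10a ran from 3.82 in array DV709 to 10.10 in array DV708. P2rx3 ran from 4.28 in array DV706 to 11.27 in array DV708. Which tissue the 14 arrays held beside nerve was not tested. RNA integrity was read from the Gapdh controls, as the log2 intensity at the 3' end minus that at the 5' end, which was 4.38 in array DV707, 3.71 in array DV706 and 1.75 in array DR716, against 1.00 to 1.37 in the other 16.

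No member, and no gene of the 13460, passed an adjusted p of 0.05 in any comparison between groups (0% called; limma, Benjamini-Hochberg adjustment over all genes tested). At an unadjusted p under 0.05 the members counted 1 of 9 for diabetes under vehicle (18.1% of all genes), 1 of 9 for rosiglitazone in diabetic mice (9.7%), 4 of 9 for rosiglitazone in control mice (2.83%), none for diabetes under rosiglitazone (1.29%) and 1 of 9 for the interaction (4.77%). Plin5 was among the 4 for rosiglitazone in control mice, although its control vehicle mean, 5.37, lay below the filter. The groups overlapped for all 9 members in the 4 comparisons of group pairs, where 5.06%, 0.632%, 3.45% and 0.401% of all genes did not overlap. What the arrays did show was a wide range of droplet transcripts between animals of a group, which for Cidec and Plin4 followed Adipoq.

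**Figure D1:**
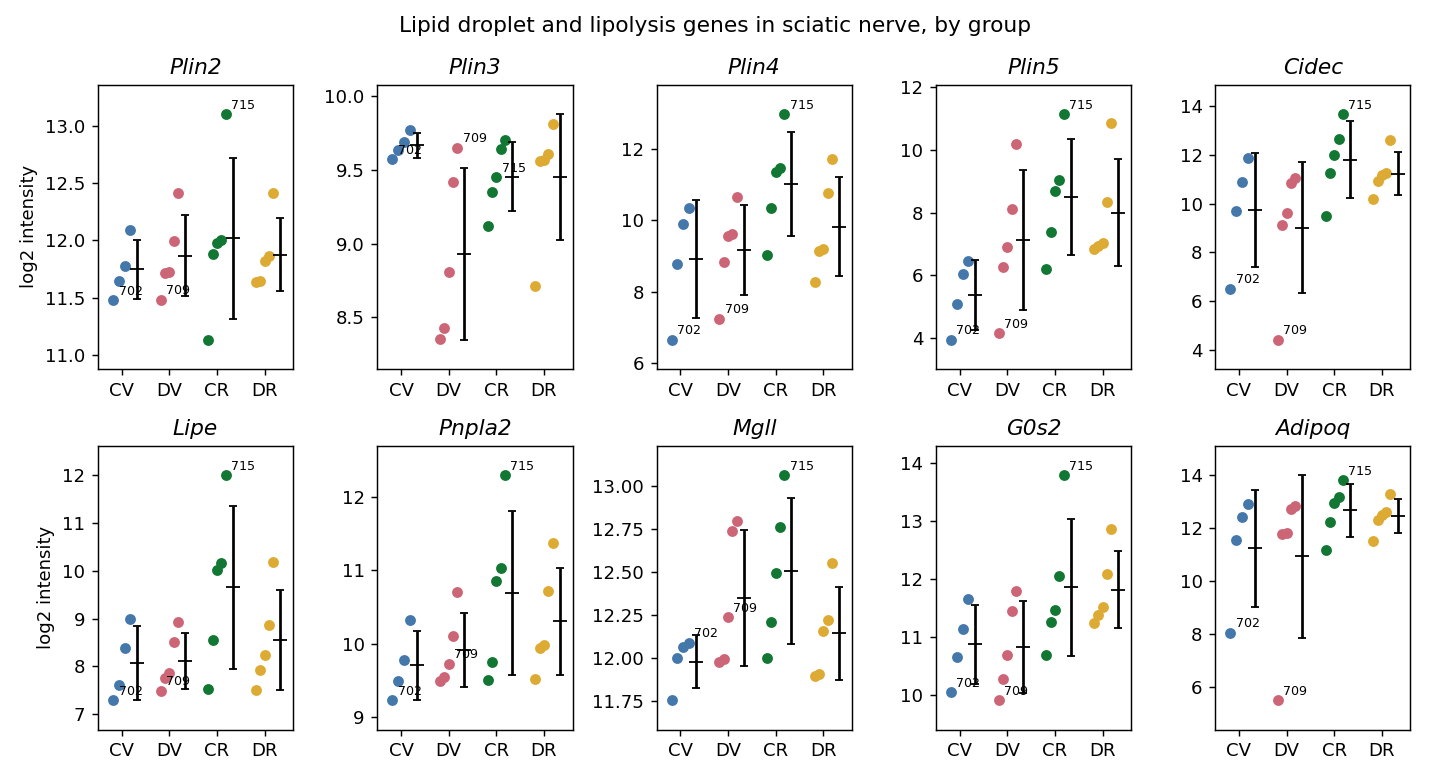
Log2 intensity of the 9 genes and of Adipoq in each array, for control vehicle (CV, n = 4), diabetic vehicle (DV, n = 5), control rosiglitazone (CR, n = 5) and diabetic rosiglitazone (DR, n = 5), with the points of a group sorted by value. Bars are mean ± SD and numbers name arrays CV702, DV709 and CR715, of which CR715 was the highest for 8 of the 9 genes.

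Among the perilipins, Plin4 and Plin5 varied most. Plin4, which coats nascent droplets of fat cells, read 6.66, 9.91, 8.77 and 10.36 in control vehicle arrays and 9.55, 10.66, 8.84, 7.25 and 9.62 in diabetic vehicle arrays. It read 11.46, 11.35, 9.04, 10.34 and 12.98 in control rosiglitazone arrays and 11.72, 9.15, 8.27, 9.20 and 10.76 in diabetic rosiglitazone arrays. The lowest values were those of the arrays poorest in Adipoq, CV702 and DV709, the highest was that of array CR715, and the range spanned 79.9-fold.

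Plin5, the perilipin of tissues that burn fat such as heart and brown fat, read 3.94, 6.44, 5.06 and 6.05 in control vehicle arrays and 8.12, 10.19, 6.89, 4.15 and 6.27 in diabetic vehicle arrays. It read 9.03, 8.70, 6.21, 7.37 and 11.14 in control rosiglitazone arrays and 10.85, 6.84, 6.92, 7.04 and 8.35 in diabetic rosiglitazone arrays. Arrays CR715, DR716 and DV707 were the highest, each from a different group. All 3 were among the 5 arrays poorest in sensory neuron markers, and the part of tissue content in these values was not tested. Arrays DV707 and DR716, and array DV706 at 8.12, also had the highest Gapdh 3' minus 5' differences. In control rosiglitazone arrays 4 of 5 values were above the highest control vehicle value of 6.44, and the remaining value, 6.21, fell within the control vehicle range.

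Plin2, the perilipin found in most cells, read 11.48, 11.77, 11.65 and 12.09 in control vehicle arrays and 12.00, 12.42, 11.73, 11.48 and 11.72 in diabetic vehicle arrays. It read 12.01, 11.88, 11.13, 11.98 and 13.10 in control rosiglitazone arrays and 12.42, 11.64, 11.64, 11.82 and 11.86 in diabetic rosiglitazone arrays. Its range was 3.91-fold, and the highest and the lowest array, CR715 and CR713, both came from the control rosiglitazone group.

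Plin3 is a perilipin that moves between cytosol and droplet. It read 9.57, 9.63, 9.77 and 9.69 in control vehicle arrays and 8.43, 8.36, 8.81, 9.65 and 9.41 in diabetic vehicle arrays. It read 9.12, 9.35, 9.70, 9.64 and 9.45 in control rosiglitazone arrays and 8.71, 9.56, 9.81, 9.61 and 9.57 in diabetic rosiglitazone arrays. The 4 lowest values, 8.36, 8.43, 8.71 and 8.81, were those of arrays DV707, DV706, DR716 and DV708, and the other 15 arrays lay between 9.12 and 9.81. Arrays DV707, DV706 and DR716 were also the 3 with the highest Gapdh 3' minus 5' difference, while array DV708 had a Gapdh difference of 1.09.

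Cidec, the droplet fusion gene, ran from 4.41 to 13.68. The lowest value, in array DV709, lay below the filter of 5.54, so no fold is given. It read 6.51, 10.88, 9.68 and 11.88 in control vehicle arrays and 9.12, 10.87, 9.63, 4.41 and 11.06 in diabetic vehicle arrays. It read 11.98, 12.65, 9.48, 11.26 and 13.68 in control rosiglitazone arrays and 12.60, 10.91, 10.18, 11.17 and 11.27 in diabetic rosiglitazone arrays. The order of the arrays was close to that of Adipoq, with DV709 and CV702 at the bottom and CR715 at the top. The SD was 0.88 in diabetic rosiglitazone arrays and 2.70 in diabetic vehicle arrays, and the latter was 0.94 without array DV709.

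Of the lipases, Pnpla2 read 9.23, 9.78, 9.49 and 10.32 in control vehicle arrays and 9.55, 10.71, 9.49, 9.73 and 10.11 in diabetic vehicle arrays. It read 10.85, 11.04, 9.50, 9.75 and 12.30 in control rosiglitazone arrays and 11.37, 9.94, 9.52, 9.98 and 10.71 in diabetic rosiglitazone arrays. The range was 8.45-fold, with array CR715 at the top and arrays DR716 and CR712 next.

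Lipe read 7.29, 8.39, 7.61 and 9.00 in control vehicle arrays and 7.76, 8.92, 7.86, 7.49 and 8.51 in diabetic vehicle arrays. It read 10.17, 10.02, 7.52, 8.56 and 12.01 in control rosiglitazone arrays and 10.18, 7.93, 7.50, 8.25 and 8.88 in diabetic rosiglitazone arrays. Values above 10 occurred in rosiglitazone arrays alone, in 3 control arrays and 1 diabetic array, while the other 6 rosiglitazone arrays lay within the vehicle range of 7.29 to 9.00.

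Mgll, which in nervous tissue also degrades an endocannabinoid, had the narrowest range, 2.48-fold. It read 12.09, 12.00, 11.76 and 12.07 in control vehicle arrays and 12.80, 12.74, 11.98, 12.24 and 12.00 in diabetic vehicle arrays. It read 12.76, 12.50, 12.21, 12.00 and 13.07 in control rosiglitazone arrays and 12.55, 11.91, 11.90, 12.16 and 12.22 in diabetic rosiglitazone arrays. The highest values were those of arrays CR715, DV706, CR711 and DV707, of which DV706 and DV707 were diabetic vehicle arrays.

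G0s2, the inhibitor of Pnpla2, read 10.05, 11.14, 10.66 and 11.65 in control vehicle arrays and 10.27, 11.45, 10.69, 9.91 and 11.79 in diabetic vehicle arrays. It read 11.26, 12.04, 10.70, 11.47 and 13.79 in control rosiglitazone arrays and 12.85, 11.37, 11.24, 12.09 and 11.51 in diabetic rosiglitazone arrays. The lowest diabetic rosiglitazone value, 11.24, was above 3 of the 5 diabetic vehicle values, and the range over all arrays was 14.7-fold.

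Rosiglitazone in control mice asks what the drug did without diabetes. The mean was higher with rosiglitazone for 8 of 9 members, with a median difference of 0.98 on the log2 scale, against 0.003 over all genes tested, and none passed the test. The mean difference was 3.12 (SE 1.14, unadjusted p = 0.0143, adjusted p = 1.00, limma) for Plin5 and 2.11 (SE 0.90, unadjusted p = 0.0323, adjusted p = 1.00, limma) for Plin4. It was 1.58 (SE 0.72, unadjusted p = 0.0407, adjusted p = 1.00, limma) for Lipe and 0.53 (SE 0.22, unadjusted p = 0.0287, adjusted p = 1.00, limma) for Mgll. The other means differed by 2.07 (SE 1.25) for Cidec, 0.98 (SE 0.49) for Pnpla2, 0.98 (SE 0.55) for G0s2, 0.27 (SE 0.29) for Plin2 and -0.21 (SE 0.25) for Plin3. Their adjusted p was 1 for each after rounding. Adipoq itself differed by 1.43 (SE 1.24). Array CR715 entered this comparison, and without it 8 of 9 means were still higher, with a median of 0.58. Plin5 then differed by 2.45, Plin4 by 1.62, Cidec by 1.60, Lipe by 1.00, Pnpla2 by 0.58, G0s2 by 0.49 and Plin2 by 0.003. Without array CV702, the control vehicle array poor in Adipoq, Cidec differed by 0.99 and Plin4 by 1.35. The control vehicle mean of Plin5, 5.37, lay below the filter of 5.54, which Plin5 passed through the other groups, so the size of its difference is uncertain.

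Rosiglitazone in diabetic mice asks whether the drug changed the diabetic nerve. The mean was higher with rosiglitazone for 8 of 9 members, with a median of 0.52 against -0.02 over all genes tested. Cidec differed by 2.21 (SE 1.18, adjusted p = 0.497, limma), G0s2 by 0.99 (SE 0.52, adjusted p = 0.497) and Plin3 by 0.52 (SE 0.24, unadjusted p = 0.0443, adjusted p = 0.497). Plin5 differed by 0.88 (SE 1.08), Plin4 by 0.64 (SE 0.85), Lipe by 0.44 (SE 0.67), Pnpla2 by 0.39 (SE 0.46), Plin2 by 0.01 (SE 0.28) and Mgll by -0.20 (SE 0.21). Adipoq differed by 1.52 (SE 1.17). Array DV709, with the lowest Adipoq, was in the vehicle group here, and without it Cidec differed by 1.06, Plin5 by 0.13, Plin4 by 0.15, Lipe by 0.28 and G0s2 by 0.76, with 7 of 9 higher and a median of 0.28. Without array DR716, in the rosiglitazone group, 7 of 9 were higher, the median was 0.16 and Plin5, Plin4 and Lipe differed by 0.16, 0.16 and 0.03. With array weights 6 of 9 were higher, with a median of 0.08, and without the 5 arrays poorest in sensory neuron markers the median was 0.24.

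Diabetes under vehicle gave differences in both directions, with 6 of 9 means higher in diabetic mice and a median of 0.12 against 0.03 over all genes tested. Plin3 had the smallest p and differed by -0.74 (SE 0.25, unadjusted p = 0.0102, adjusted p = 0.238, limma). Plin5 differed by 1.75 (SE 1.14), Mgll by 0.37 (SE 0.22), Plin4 by 0.26 (SE 0.90), Pnpla2 by 0.21 (SE 0.49), Plin2 by 0.12 (SE 0.29), Lipe by 0.04 (SE 0.72), G0s2 by -0.05 (SE 0.55) and Cidec by -0.72 (SE 1.25). For Adipoq the difference was -0.30 (SE 1.24). Without the 3 arrays of high Gapdh difference, Plin3 differed by -0.38, and 3 of 9 members were higher. The highest diabetic vehicle values of Plin5 were those of arrays DV707 and DV706, and without array DV707 Plin5 differed by 0.99. With the Gapdh difference as covariate, 2 of 9 members were higher, the median was -0.18 and Plin3 stayed below 0. Arrays DV706 and DV707 are diabetic vehicle arrays, so RNA integrity moved with the group here. Its part in the Plin3 difference cannot be told apart from that of diabetes.

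Diabetes under rosiglitazone gave lower means for all 9 members in diabetic mice, with a median of -0.39 against 0.01 over all genes tested, and an adjusted p of 1 for each after rounding. Plin4 differed by -1.21 (SE 0.85), Lipe by -1.11 (SE 0.67), Cidec by -0.58 (SE 1.18), Plin5 by -0.49 (SE 1.08), Pnpla2 by -0.39 (SE 0.46), Mgll by -0.36 (SE 0.21) and Plin2 by -0.15 (SE 0.28). G0s2 and Plin3 differed by -0.04 (SE 0.52) and -6.9e-05 (SE 0.24). This direction depended on the arrays left out. Without array CR715 alone 4 members were higher, 5 were lower and the median was -0.0007, with array DR716 still in the diabetic group. Without array DR716 alone 1 was higher, 8 were lower and the median was -0.65. Without the 5 arrays poorest in sensory neuron markers, CR715 and DR716 among them, 2 were higher and 7 lower. The median was then -0.32.

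The interaction, the rosiglitazone difference in diabetic mice minus that in control mice, was negative for 6 of 9 members, with a median of -0.60 against -0.02 over all genes tested. Mgll had the smallest p, at -0.73 (SE 0.30, unadjusted p = 0.0274, adjusted p = 0.748, limma). Plin3 was at 0.74 (SE 0.35, unadjusted p = 0.0509), Plin5 at -2.24 (SE 1.57), Plin4 at -1.47 (SE 1.24), Lipe at -1.15 (SE 0.98), Pnpla2 at -0.60 (SE 0.67), Plin2 at -0.27 (SE 0.40), Cidec at 0.14 (SE 1.71) and G0s2 at 0.01 (SE 0.76). Without array CR715 the median was -0.19, with 4 members above 0 and 5 below. Without the 5 arrays poorest in sensory neuron markers, CR715 among them, it was -0.34, with 2 above 0 and 7 below. With array weights it was -0.61, with 1 above 0 and 8 below. The Mgll value changed sign with the probe set, as given below. The response to rosiglitazone was not shown to differ between diabetic and control nerve for any member.

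**Figure D2:**
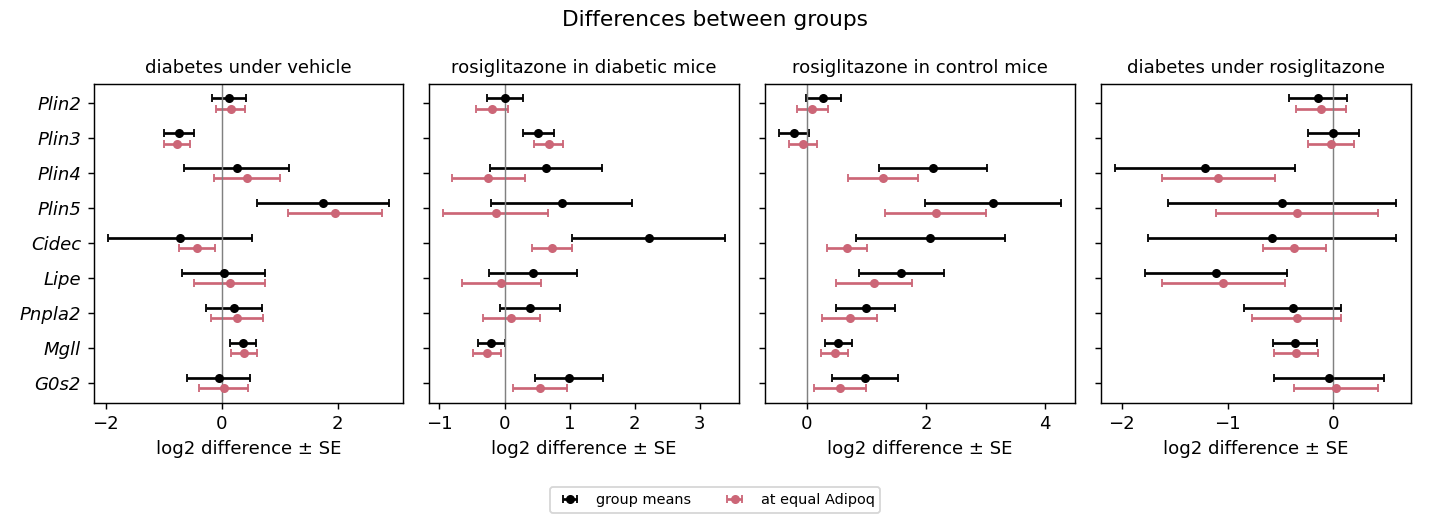
Mean difference between groups on the log2 scale, ± SE of the model, for each of the 9 genes in 4 comparisons, from group means (black) and at equal Adipoq (red). In the panel for rosiglitazone in control mice, Plin5 at 3.12 and Plin4 at 2.11 stand farthest from 0, and Plin3 at -0.21 lies on the other side. The control vehicle mean of Plin5 lay below the filter on low values.

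Across arrays, Cidec and Plin4 rose with Adipoq, and Plin5 did so with a call that depended on the arrays included. The slope of a gene on Adipoq, in log2 per log2 with the 4 group means in the fit, was positive and past the threshold for 3 of 9 members, where 1.41% of all genes had a called positive slope and 1.75% a called slope. Cidec had a slope of 0.97 (SE 0.06, adjusted p = 1.13e-07, limma), the 4th smallest p of all genes, Plin4 of 0.58 (SE 0.11, adjusted p = 0.0125) and Plin5 of 0.67 (SE 0.16, adjusted p = 0.043). G0s2 had 0.29 (SE 0.08, adjusted p = 0.0905), Lipe 0.32 (SE 0.12, adjusted p = 0.211), Plin2 0.13 (SE 0.05, adjusted p = 0.218), Pnpla2 0.18 (SE 0.09, adjusted p = 0.333), Mgll 0.04 (SE 0.04, adjusted p = 0.681) and Plin3 -0.10 (SE 0.04, adjusted p = 0.294). The Plin5 call was lost when any 1 of 15 of the 19 arrays was left out, with an adjusted p of 0.243 without array DV709.

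**Figure D3:**
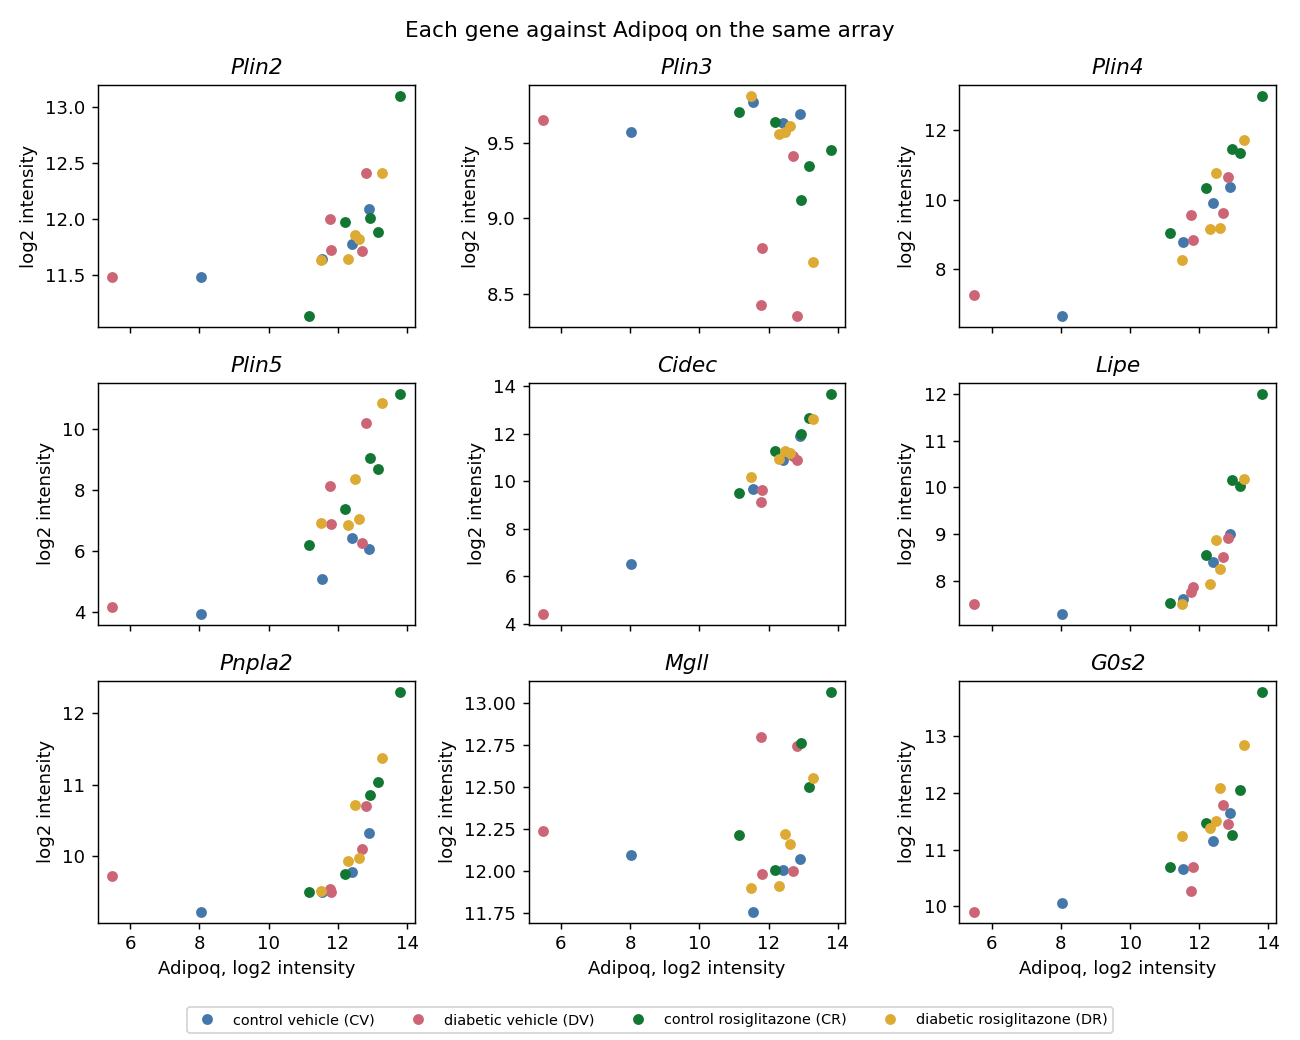
Log2 intensity of each of the 9 genes against that of Adipoq in the same array, with 1 point per array and colour for the group. Arrays DV709 and CV702 lie far to the left at 5.48 and 8.04, and over the other 17 arrays, from 11.16 to 13.80, Lipe, Pnpla2, Plin4, Cidec and G0s2 climb with Adipoq while Plin3 does not.

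Arrays CV702 and DV709 held the lowest Lipe values, at 7.29 and 7.49, but array DR718 was close to them at 7.50 with an Adipoq value of 11.50. Over the other 17 arrays, a choice made after the data were seen, 7 of 9 members were past the threshold, all with positive slopes, against 2.12% of all genes with a called positive slope. The slopes were 1.52 for Cidec, 1.62 for Plin5 (adjusted p = 0.0419, limma), 1.44 for Plin4, 1.44 for Lipe (adjusted p = 2.09e-04), 0.97 for Pnpla2 (adjusted p = 0.00102), 0.96 for G0s2 (adjusted p = 0.00427) and 0.49 for Plin2 (adjusted p = 0.0228). Mgll, at 0.29 (adjusted p = 0.137), and Plin3, at -0.19 (adjusted p = 0.384), did not pass. When array CR715 was left out too, 5 of 9 passed, against 0.565% of all genes: Cidec at 1.49, Plin4 at 1.37, Lipe at 1.27, Pnpla2 at 0.85 and G0s2 at 0.76. Plin5, at 1.43, then had an adjusted p of 0.269 and Plin2, at 0.37, of 0.146.

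Correlations with Adipoq, with 100000 permutations for each of 13459 genes and adjustment over all of them, were computed in several sets of arrays. Over all 19 arrays Pearson's r was 0.96 for Cidec, 0.80 for Plin4 and 0.72 for Plin5, which passed (permutation p = 1e-05, the smallest that these permutations can give, for Cidec and Plin4; adjusted p = 0.00306, 0.00306 and 0.0182), against 0.951% of all genes with a called positive r. The Plin5 call was lost without the 3 arrays of high Gapdh difference (r = 0.74, permutation, adjusted p = 0.064), without array DV707 (adjusted p = 0.0626) and without array DR716 (adjusted p = 0.0514). Over all arrays r was 0.73 for G0s2 (permutation, adjusted p = 0.0781), 0.61 for Lipe, 0.56 for Plin2, 0.55 for Pnpla2, 0.27 for Mgll and -0.25 for Plin3. Spearman's rho, which uses ranks, was 0.96 for Lipe, 0.92 for Pnpla2, 0.92 for Plin4, 0.91 for Cidec, 0.86 for G0s2, 0.83 for Plin2 and 0.72 for Plin5. These 7 of 9 passed by permutation (adjusted p from 0.00228 to 0.0427), against 1.7% of all genes with a called positive rho, while Mgll at 0.45 and Plin3 at -0.52 did not.

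Without arrays DV709 and CV702, the 2 farthest from the Adipoq median, r was 0.93 for Cidec, 0.90 for Lipe, 0.90 for Pnpla2, 0.87 for Plin4, 0.85 for G0s2 and 0.80 for Plin2, and these 6 of 9 passed by permutation (adjusted p from 0.00396 to 0.00792), against 1.17% of all genes. Plin5 had r = 0.70 (permutation, adjusted p = 0.0757), Mgll 0.58 (adjusted p = 0.168) and Plin3 -0.20 (adjusted p = 0.741). Without array CR715 as well, r was 0.91 for Cidec, 0.89 for Lipe, 0.88 for Pnpla2 and 0.83 for Plin4, which passed (0.267% of all genes had a called r), and 0.80 for G0s2 (permutation, adjusted p = 0.0513). Within the 10 rosiglitazone arrays r was 0.98 for Cidec, 0.92 for Pnpla2, 0.92 for Lipe, 0.88 for Plin4, 0.88 for Plin5, 0.87 for Plin2, 0.85 for G0s2, 0.78 for Mgll and -0.66 for Plin3. Within the 10 diabetic arrays r was 0.97 for Cidec, 0.75 for Plin4, 0.72 for G0s2, 0.72 for Plin5 and 0.56 for Plin2. It was 0.55 for Lipe, 0.42 for Pnpla2, 0.09 for Mgll and -0.33 for Plin3 there. Without array DV709, r in diabetic arrays rose to 0.90 for Lipe and 0.89 for Pnpla2, and fell to 0.88 for Cidec and 0.60 for Plin5. Within the 9 control arrays r was 0.98 for Cidec, 0.94 for Plin4, 0.80 for Plin5, 0.78 for G0s2 and 0.76 for Lipe. It was 0.74 for Pnpla2, 0.65 for Plin2, 0.49 for Mgll and -0.34 for Plin3. Within the 9 vehicle arrays it was 0.98 for Cidec, 0.89 for Plin4, 0.80 for G0s2, 0.72 for Lipe, 0.67 for Plin2, 0.67 for Plin5, 0.48 for Pnpla2, 0.04 for Mgll and -0.33 for Plin3. Within the 7 vehicle arrays left without DV709 and CV702 it was 0.98 for Lipe, 0.92 for Cidec, 0.92 for G0s2, 0.91 for Pnpla2 and 0.87 for Plin4 (exact permutation p from 0.000198 to 0.0123, unadjusted), against 0.57 for Plin2, 0.30 for Plin5, 0.17 for Mgll and 0.07 for Plin3.

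**Figure D4:**
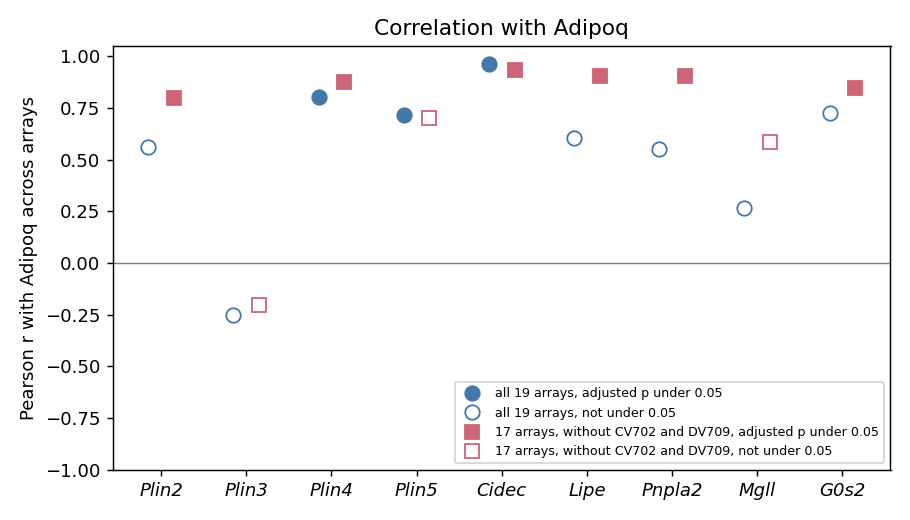
Pearson's r of each of the 9 genes with Adipoq across all 19 arrays (circles) and across the 17 arrays without CV702 and DV709 (squares), filled where the permutation p adjusted over all genes was under 0.05. Lipe moves from 0.61 to 0.90 and Pnpla2 from 0.55 to 0.90, while Plin3 stays below 0 at -0.25 and -0.20.

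Comparing groups at equal Adipoq, with its level as a covariate, again called no member and no gene in any of the 5 comparisons (0%). In control mice, 8 of 9 members were higher with rosiglitazone at equal Adipoq, with a median of 0.67 against 0.01 over all genes. Without array DV709 the median was 0.36 and without array CR715 it was 0.41, with 7 of 9 higher in each. Without array DV709, Cidec differed by 0.36, Lipe by 0.61 and Plin4 by 0.71. All arrays gave the values that follow. Plin5 differed by 2.16 (SE 0.85, unadjusted p = 0.021, limma), Plin4 by 1.28 (SE 0.59), Lipe by 1.13 (SE 0.64), Pnpla2 by 0.72 (SE 0.46), Cidec by 0.67 (SE 0.33), G0s2 by 0.56 (SE 0.44), Mgll by 0.47 (SE 0.23), Plin2 by 0.09 (SE 0.26) and Plin3 by -0.07 (SE 0.24). The control vehicle mean of Plin5 lay below the filter, so the size of its difference is uncertain here too. In diabetic mice 4 of 9 were higher and the median was -0.05. Cidec differed by 0.73 (SE 0.31, adjusted p = 0.399) there and Plin3 by 0.68 (SE 0.22, adjusted p = 0.399), while G0s2 was at 0.54, Pnpla2 at 0.11, Lipe at -0.05, Plin5 at -0.14, Plin2 at -0.19, Plin4 at -0.25 and Mgll at -0.27. The Cidec difference with rosiglitazone in diabetic mice was thus 2.21 from group means and 0.73 at equal Adipoq. Adipoq was read from the same arrays and may itself change with the treatment, although no comparison between groups called it.

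Diabetes under vehicle at equal Adipoq left Plin3 at -0.77 (SE 0.23, unadjusted p = 0.00395, adjusted p = 0.208, limma) and Plin5 at 1.95 (SE 0.82, unadjusted p = 0.0291, adjusted p = 0.221), while the unadjusted p was under 0.05 for 20.5% of all genes. Without array DV707, which had the highest Gapdh difference, Plin5 differed by 1.44. Plin4 differed by 0.44, Mgll by 0.38, Pnpla2 by 0.27, Plin2 by 0.16, Lipe by 0.14, G0s2 by 0.04 and Cidec by -0.42. Over all arrays 7 members were higher and 2 lower, with a median of 0.16. Without array DV709, 2 were higher and 7 lower, with a median of -0.29. Without diabetic vehicle array DV710 the Plin3 difference was -0.95 (adjusted p = 0.0274) and the Plin5 difference 2.52 (adjusted p = 0.0459), and 1832 genes were then called, so that the threshold for both genes turned on 1 array. Diabetes under rosiglitazone at equal Adipoq had 1 member higher and 8 lower, and the interaction 2 higher and 7 lower.

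Skeletal muscle is another tissue that carries Plin5 and Pnpla2, and muscle transcripts varied between arrays, with Acta1, skeletal muscle actin, between 4.67 and 13.27. In a fit with Adipoq and Acta1 together, no member had a called Acta1 slope, while 0.305% of all genes did. Plin5 had an Acta1 slope of 0.09 (SE 0.12) and Pnpla2 of 0.01 (SE 0.07). Cidec kept an Adipoq slope of 0.99 and Plin4 of 0.56 in that fit, both called (1.5% of all genes). The Adipoq slope of Plin5 was 0.63 (adjusted p = 0.0811, limma) in that fit and was no longer called.

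Other probe sets of a gene served as a check. The other Plin5 probe set correlated with the one used at r = 0.97 over the 19 arrays, and the other Pnpla2 probe set at 0.82. By that Plin5 probe set the difference was 2.17 against 3.12 for rosiglitazone in control mice. It was 1.36 against 1.75 for diabetes under vehicle and 0.52 against 0.88 for rosiglitazone in diabetic mice. The r with Adipoq was 0.62 against 0.72. Its control vehicle values, 4.20 to 5.40, all lay below the filter. By that Pnpla2 probe set the difference was 1.00 against 0.21 for diabetes under vehicle, and -0.03 against 0.39 for rosiglitazone in diabetic mice. The other Lipe probe set, whose mean was below the filter, correlated at 0.28. For Mgll the 4 probe sets disagreed. Against the one used (1450391_a_at), r was 0.29 for 1426785_s_at, -0.14 for 1453836_a_at and 0.36 for 1431331_at, the last below the filter. The Mgll difference for diabetes under vehicle was 0.37 by the probe set used and -0.25, -1.10 and 0.58 by these in the same order. For rosiglitazone in diabetic mice it was -0.20 by the probe set used and 0.39, 1.11 and -0.32 by the others, and for the interaction -0.73 against -0.32, 0.59 and -0.36. Arrays DV706 and DV707 carried this split: they were at 12.80 and 12.74 by the probe set used, among the highest, but at 5.97 and 5.62 by 1453836_a_at, where the other 17 arrays lay between 7.79 and 10.11. With rosiglitazone in control mice the Mgll difference was above 0 by all 4 probe sets, at 0.53, 0.71, 0.52 and 0.04.

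**Figure D5:**
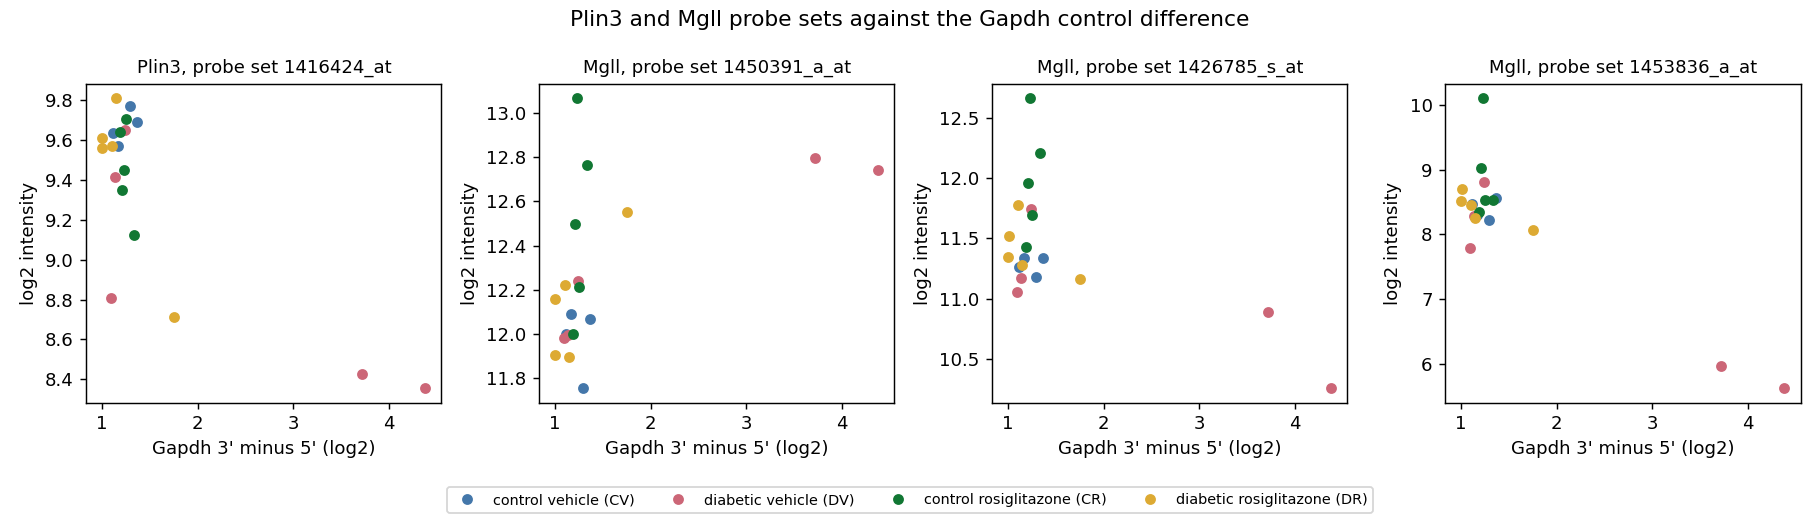
Log2 intensity of the Plin3 probe set and of 3 Mgll probe sets against the Gapdh difference between 3' and 5' ends (log2), with 1 point per array and colour for the group. Arrays DV706 and DV707, at 3.71 and 4.38, are high by 1450391_a_at but lowest by the other Mgll probe sets shown and low for Plin3.

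The genes whose values over the 19 arrays were most like each member, by Pearson's r among all genes tested, are given as a description. Cidec was most like Ifi27l2a (0.96), Adipoq (0.96) and Adig (0.96), and Plin4 most like Lgals12 (0.96), Ces1d (0.96) and Pck1 (0.96). Lipe and Pnpla2, which act in succession, were close to each other (0.97), Lipe after 4931408D14Rik (0.97) and ahead of Hcar2 (0.95), and Pnpla2 ahead of Slc1a5 (0.95) and Ech1 (0.95). G0s2 was most like Mrap (0.94), Gstz1 (0.94) and Hcar2 (0.93), Plin5 most like Ffar2 (0.96), Acaa1b (0.96) and Bnip3 (0.94), and Plin2 most like Trim14 (0.95), Pparg (0.92), the gene of the rosiglitazone receptor, and Hibch (0.92). Mgll was most like Adipor2 (0.92), Aifm2 (0.91) and Ucp3 (0.91), and Plin3 most like Ssb (0.95), Ppie (0.94) and Synj2bp (0.94). Tissue content and RNA integrity varied between these arrays, and their part in the correlations was not tested.

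Of 35 further genes of droplets and lipolysis, listed by function, 28 were tested and none passed in a comparison between groups. For rosiglitazone in control mice 21 of the 28 were higher, with a median of 0.11, and the smallest unadjusted p belonged to Ces1f, a carboxylesterase, at 2.68 (SE 1.16), Cidea, a relative of Cidec found in brown fat, at 1.68 (SE 0.79), Aqp7, the glycerol channel of fat cells, at 2.46 (SE 1.22), and Lpin1, a phosphatidate phosphatase, at 0.50 (SE 0.26). These values include array CR715, where Cidea was highest, at 11.75 against a mean of 7.29 over all arrays. For rosiglitazone in diabetic mice 18 of 28 were higher, with a median of 0.18, and Prkar2b (-0.30, SE 0.12), Prkaca (0.59, SE 0.27), both subunits of protein kinase A, Rab18 (0.28, SE 0.14) and Cav1 (-0.20, SE 0.10) led. Diabetes under vehicle gave 14 higher and 14 lower, led by Hilpda (-0.38, SE 0.15), another inhibitor of Pnpla2, Cavin1 (-0.43, SE 0.18), Rab18 (-0.34, SE 0.15) and Lipa (0.38, SE 0.20). On Adipoq, 4 of the 28 had a called slope, all positive: Ces1f (0.84, SE 0.10, adjusted p = 2.25e-04, limma), Ces1d (0.57, SE 0.08, adjusted p = 5.2e-04), Aqp7 (0.73, SE 0.16, adjusted p = 0.0322) and Pde3b (0.39, SE 0.09, adjusted p = 0.0341), the phosphodiesterase by which insulin restrains lipolysis. The median slope of the 28 was 0.02, against 0.29 for the 9 members and -0.003 over all genes.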

How the data were processed

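Sciatic nerve RNA was measured on 19 Affymetrix arrays. The authors deposited linear intensities, with 1 value for each probe set in each array. RMA is named, with no version, in the submitters' processing notes. How the values came to be linear, the software and the genome build are not given in the sources used here. Depth does not apply to arrays, and their number limits the precision. Groups came from the sample titles. Intensities were converted to log2 without an offset. Of 45101 probe sets, 34945 had 1 symbol in the platform annotation, and a gene was read from the one with the highest mean. Genes above the 40th percentile (5.54) were fitted with limma 3.58.1 in R 4.3.3 (lmFit, eBayes, 4 group means) with Benjamini-Hochberg adjustment over all tested genes, without and with Adipoq as covariate. Spread in these p-values is that between mice. The method was tested on simulated data.

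All listed members are named in every comparison, up to 4 further droplet genes by p, and the 3 genes most like each member. At equal Adipoq the last 2 comparisons are given by counts. Members and lists were chosen with earlier results of these data known. Alternatives covered scaling, an offset of 16, the filter, probe sets, array weights, Gapdh integrity, left-out arrays, the groups in the fit and the covariate.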

Additional observations from a re-analysis of the deposited data

Results flagged for a closer look

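In 40 sets of a gene and a group of 4 or 5 arrays, 3 held an array far from the rest by Dixon's criterion, which chance gives in about 1 of 20 sets. In diabetic rosiglitazone mice, array DR716 had the highest Plin2 value, 12.42, with the next at 11.86, and the lowest Plin3 value, 8.71, with the next at 9.56. The same array had a Gapdh 3' minus 5' difference of 1.75. In diabetic vehicle mice, array DV709 had the lowest Adipoq value, 5.48, with the next at 11.77. Causes were not tested.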

How the results depend on the processing

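With array weights 20 genes were called for rosiglitazone in control mice, no member among them. The number of genes with a called Adipoq slope, 236, was 91 without the 5 arrays poorest in sensory neuron markers, 365 with the fat cell markers in place of Adipoq and 77 without arrays CV702, DV709 and CR715, a set chosen after the data were seen. The number with a called Adipoq correlation, 175, was 275 by Spearman's rho and 36 without those 3 arrays. When each array was left out in turn, called genes ranged from 0 to 4 for diabetes under vehicle, from 0 to 1832 for it at equal Adipoq and from 0 to 1 for the interaction at equal Adipoq, each highest without array DV710. They ranged from 76 (without array DV709) to 328 for the slope, with 155 without array DV707, and from 71 (without array DV709) to 227 for the correlation, with 109 without array DR716. Cidec and Plin4 had a called slope in all 32 alternatives run. The G0s2 slope was called with array weights (adjusted p = 0.0151), with the fat cell markers (0.0121) and without array CR715 (0.0485). The Plin5 slope lost its call in 24 of 32 alternatives. No paired analysis was possible because no replicate number is shared between groups. Centring arrays on their medians moved the median of all genes from 0.03 to 0.12 for diabetes under vehicle, from -0.02 to -0.10 for rosiglitazone in diabetic mice and from -0.02 to -0.11 for the interaction. The causes of the changes were not tested. With quantile normalization again, the sign turned for Plin2 at -0.0065 (rosiglitazone in diabetic mice), for G0s2 at -0.0053 (interaction of diabetes and rosiglitazone). With each array centred on its median, the sign turned for G0s2 at 0.041 (diabetes under vehicle), for Plin2 at -0.077 (rosiglitazone in diabetic mice), for G0s2 at -0.081 (interaction of diabetes and rosiglitazone). With an offset of 16, the sign turned for Plin3 at 0.00082 (diabetes under rosiglitazone). With the mean of all probe sets of a gene, the sign turned for Mgll at -0.10 (diabetes under vehicle), for Lipe at -0.0054 and Mgll at 0.24 (rosiglitazone in diabetic mice), for Mgll at -0.042 (Adipoq slope). With array weights, the sign turned for G0s2 at 0.079 (diabetes under vehicle), for Plin2 at -0.056 and Lipe at -0.099 (rosiglitazone in diabetic mice), for Plin3 at 0.13 (diabetes under rosiglitazone), for Cidec at -0.085 and G0s2 at -0.17 (interaction of diabetes and rosiglitazone). With the Gapdh difference as covariate, the sign turned for Plin2 at -0.13, Plin4 at -0.46, Lipe at -0.26 and Pnpla2 at -0.039 (diabetes under vehicle), for Mgll at 0.079 (rosiglitazone in diabetic mice). Without the 3 arrays of high Gapdh difference, the sign turned for Plin2 at -0.11, Plin4 at -0.36 and Lipe at -0.12 (diabetes under vehicle), for Plin3 at 0.18 (diabetes under rosiglitazone), for G0s2 at -0.22 (interaction of diabetes and rosiglitazone), for Plin5 at 0.40 and Pnpla2 at -0.094 (rosiglitazone in diabetic mice at equal Adipoq). Without the 5 arrays poorest in sensory neuron markers (DV706, DV707, DV709, CR715 and DR716), the sign turned for Plin2 at -0.026, Cidec at 0.61 and G0s2 at 0.36 (diabetes under vehicle), for Lipe at -0.050 and Mgll at 0.056 (rosiglitazone in diabetic mice), for Plin3 at 0.18 and G0s2 at 0.18 (diabetes under rosiglitazone), for Plin2 at 0.015, Cidec at -1.06 and G0s2 at -0.18 (interaction of diabetes and rosiglitazone). With the fat cell markers in place of Adipoq, the sign turned for Cidec at 0.11 (diabetes under vehicle at equal Adipoq). Without arrays CV702 and DV709, an alternative added after the data were seen, the sign turned for Plin4 at -0.0052, Lipe at -0.059 and G0s2 at -0.094 (diabetes under vehicle at equal Adipoq), for Lipe at 0.048 (rosiglitazone in diabetic mice at equal Adipoq). When single arrays were left out, the sign turned within these ranges: Plin4 from -0.50 to 0.74, Lipe from -0.22 to 0.35, G0s2 from -0.33 to 0.20, Plin2 from -0.017 to 0.23 and Cidec from -1.80 to 0.43 (diabetes under vehicle), Cidec from -1.01 to 1.22, G0s2 from -0.27 to 0.50 and Plin2 from -0.49 to 0.0049 (interaction of diabetes and rosiglitazone), Lipe from -0.52 to 0.30, G0s2 from -0.37 to 0.24, Plin2 from -0.027 to 0.27, Plin4 from -0.29 to 0.66 and Pnpla2 from -0.21 to 0.42 (diabetes under vehicle at equal Adipoq), Plin3 from -0.19 to 0.013 and Plin2 from -0.12 to 0.30 (rosiglitazone in control mice at equal Adipoq), Pnpla2 from -0.10 to 0.28, Plin5 from -0.81 to 0.47, Lipe from -0.36 to 0.17 and Plin4 from -0.57 to 0.041 (rosiglitazone in diabetic mice at equal Adipoq), Plin2 from -0.13 to 0.14 (rosiglitazone in diabetic mice), G0s2 from -0.33 to 0.44, Plin3 from -0.089 to 0.18, Plin2 from -0.37 to 0.12, Plin5 from -1.20 to 0.18 and Pnpla2 from -0.68 to 0.017 (diabetes under rosiglitazone).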
